A study of Mus musculus with 3 samples.

Results

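The erythroid lineage genes *Klf1*, *Epor*, *Tfrc*, *Alas2*, *Slc4a1*, *Epb4.2*, *Ank1* and *Rhag* were examined for occupancy by FLI1 and RUNX1 in mouse megakaryocytes (MK), the bone marrow and fetal liver cells that shed platelets. These 8 genes, of 22367 protein-coding genes in the annotation, were picked by a rule that names their roles in red blood cells and uses no read counts. The study cultured fetal liver cells of wild-type CD1 mice with thrombopoietin for 5 days to obtain mature MK (MKMat), and asked which genes the MK transcription factors occupy. The labels give the embryos' age as E15, and the methods give a day earlier. Chromatin immunoprecipitation followed by sequencing (ChIP-seq) with antibodies against FLI1 and RUNX1 gave 1 library each, beside 1 library of input chromatin that was not precipitated. All 3 libraries came from the same kind of cells, with no other stage, lineage or genotype among them.

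Per the labels, DNA of 3 or more preparations was pooled for each library, input included, so no spread between replicates could be measured and no p-value is given. Intervals below are exact (Clopper-Pearson) 95% intervals that cover counting error only. After reads on the mitochondrial chromosome and repeated input positions were left out, 62946422 FLI1, 3973856 RUNX1 and 21745220 input reads remained. A window of 4 kb thus held 135 FLI1, 8.5 RUNX1 and 46.5 input reads at the genome-wide rate. MK were enriched by removing cells that carry markers of erythroid cells (TER119), granulocytes (GR1) and monocytes (CD11b). Large, mature cells were then selected on gradients of bovine serum albumin. The study checked the populations by staining, flow cytometry and RNA profiles, which were not analysed here. The labels describe sonicated chromatin, whereas the methods describe input chromatin digested with micrococcal nuclease. The ChIP reads were 50 bp long and the input reads 34 bp.

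FLI1, a factor of the ETS family, binds DNA around the letters GGAA and is required for MK to mature, whereas KLF1 drives the red cell program, and the pair is known to oppose each other as a common progenitor commits to either lineage. RUNX1 is a second factor needed for MK maturation and binds TGTGGT and related letters. MK and erythroid cells share that progenitor and also share GATA1, which binds letters such as AGATAA at genes of both lineages.

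FLI1 was above input at the starts of *Tfrc* and *Epor*, the genes of 2 cell surface receptors, and near or below input at those of the regulator *Klf1*, the heme enzyme *Alas2* and the 4 membrane genes. Reads were counted within 2 kb on either side of each gene start, and the ratio of FLI1 to input reads was scaled to the depth of both libraries. The ratio was 2 or more at 2 of the 8 genes, beside 25.3% of the 21706 protein-coding genes with at least 3 input reads. The median over the 8 genes was 1.07, and over all genes it was 1.27. RUNX1 over input was 2 or more at 1 of the 8, *Tfrc*, beside 16.7% of all genes, and its median was 1.37 over the 8 genes and 1.18 over all genes, an order that turned in a window of 1 kb (1.09 over 7 genes with enough input, beside 1.46). With these counts, the share of the erythroid genes past a ratio of 2 did not stand apart from that of all genes for either factor.

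**Figure D1:**
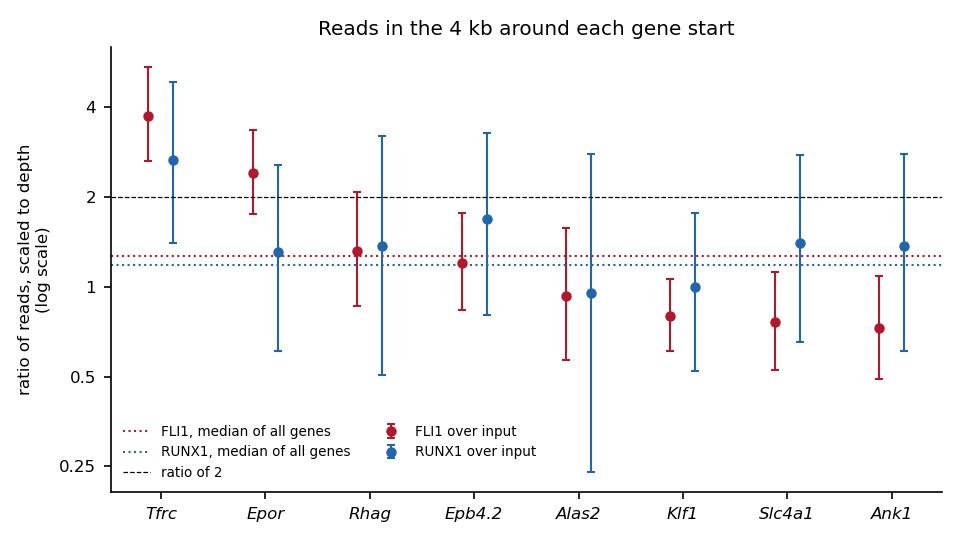
FLI1 (red) and RUNX1 (blue) reads over input reads in the 4 kb around the start of each of the 8 genes, on a log scale, with points for the 1 library of each antibody, bars for exact 95% intervals of counting error and dotted lines for the medians of all genes. *Tfrc* (3.73) and *Epor* (2.4) lie above a ratio of 2 for FLI1, *Tfrc* alone (2.66) does so for RUNX1, and the bars of RUNX1 are wide.

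*Tfrc* encodes the transferrin receptor, which carries iron into cells and is used by all dividing cells, and most of all by erythroid precursors. Its gene (chr16:32609006-32632880 in mm9, + strand) had 378 FLI1, 17 RUNX1 and 35 input reads in the 4 kb around its start. FLI1 stood at 3.73 times input (interval 2.64 to 5.44), higher than at 95.6% of all genes. RUNX1 stood at 2.66 times input (interval 1.4 to 4.87). *Tfrc* was thus the 1 gene of the 8 at which both factors were past a ratio of 2. Input here was low, at 0.752 times its genome-wide rate. With the RUNX1 library in place of input as the reference, the FLI1 ratio was 1.4 (interval 0.865 to 2.44) and was no longer past 2.

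The FLI1 reads at *Tfrc* were concentrated at the start itself. The 400 bp before the start held 114 FLI1, 4 RUNX1 and 7 input reads. The 400 bp after it held 93 FLI1, 4 RUNX1 and 2 input reads. In the outermost 400 bp on either side FLI1 had 5 and 19 reads, so the rise was local. The 120 bases before the *Tfrc* start are shown because the bases covered by most FLI1 fragments lie in them, with the summit at -16 bp from the start. The summit is given first, with the first of a pair of adjoining GGAA cores in capitals.

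*Tfrc* summit, chr16:32608973-32609002 in mm9, + strand: taggtgtacgtgcGGAAggaagtgacgtag
*Tfrc* promoter, chr16:32608886-32609005 in mm9, + strand: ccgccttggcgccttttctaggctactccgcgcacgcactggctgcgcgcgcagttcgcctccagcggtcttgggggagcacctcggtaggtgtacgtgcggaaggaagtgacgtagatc

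To find sites without fixing the position beforehand, the genome was divided into 400-bp bins, and a bin was called at 3 times or more of the expected reads and at least 8 reads. The expectation was set by whichever was largest of the mean over the genome and the depth-scaled input in the surrounding 1, 5 or 10 kb. A FLI1 bin was called within 2 kb of the start at 3 of the 8 genes, *Tfrc*, *Epor* and *Epb4.2*, beside 34.9% of all protein-coding genes. Across the gene body and 20 kb on either side, called its territory here, 5 of the 8 genes had a called FLI1 bin, beside 61.4% of all genes. These 5 genes held 13 called bins, of which 5 lay within 2 kb of the start of the gene itself. The territories of the 8 genes ranged from 108 bins (*Klf1*) to 539 bins (*Ank1*). Of all bins in territories of protein-coding genes 0.697% were called, and of all bins in the genome 0.45%.

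The bin at the *Tfrc* start (chr16:32608801-32609200) held 180 FLI1 reads, 90 on each strand, where 13.9 were expected, a 13-fold excess. It also held 5 RUNX1 and 7 input reads. A stronger site in reads lay 42274 bp beyond the *Tfrc* start, past the end of the gene, at chr16:32650801-32651600. Its higher bin held 272 FLI1 reads, 138 on one strand and 134 on the other, at 11.7 times the expectation, with 9 input reads and 1 RUNX1 read. This distant site fell in an intron of *Tnk2*, a tyrosine kinase gene, 7320 bp into that gene. It was the only site of the 8 territories that was more than 2 kb from every protein-coding gene start. Its summit is shown with the ETS letters CAGGAAA, on the - strand, in capitals.

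*Tnk2* intron site, chr16:32651236-32651282 in mm9, - strand: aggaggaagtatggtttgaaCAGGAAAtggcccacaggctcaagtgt

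*Epor* encodes the erythropoietin receptor, on which erythroid precursors depend for survival. Its gene (chr9:21763343-21768020 in mm9, - strand) had 319 FLI1, 11 RUNX1 and 46 input reads around the start. FLI1 stood at 2.4 times input (interval 1.75 to 3.34), and RUNX1 at 1.31 (interval 0.611 to 2.56). The FLI1 intervals of *Epor* and *Tfrc* overlapped, and these genes were not tested against each other. With RUNX1 as the reference the *Epor* ratio was 1.83 (interval 1.01 to 3.7).

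FLI1 reads at *Epor* formed a pair of rises, where *Tfrc* had 1. The first covered the start, with 48 FLI1 reads in the 400 bp before it and 58 in the 400 bp after it, over 5 and 2 input reads. The second lay 800 to 1200 bp inside the gene, with 85 FLI1, 6 RUNX1 and 8 input reads, and here both antibodies were high, FLI1 at 6.31 and RUNX1 at 7.06 times the genome-wide rate against 1.72 for input. In the fixed bins the first rise was called at chr9:21767601-21768400 with its summit 27 bp after the start, and its higher bin held 55 FLI1 reads at 4.08 times the expectation. The second was called at chr9:21766801-21767200, in an intron of *Epor*, with 79 FLI1 reads at 4.01 times the expectation. The RUNX1 reads of that bin were 6, at 4.83 times the expectation, and stayed under the minimum of 8 reads. Another site, chr9:21760001-21760800, belonged to the start of the neighbouring gene *2310047B19Rik*.

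The *Epor* promoter is shown with GATA letters (TTATCT, the reverse complement of AGATAA) and KLF letters (CCNCNCCC, overlapping matches) in capitals, and the intron site with the GGAA core nearest to its summit in capitals.

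*Epor* promoter, chr9:21768021-21768140 in mm9, - strand: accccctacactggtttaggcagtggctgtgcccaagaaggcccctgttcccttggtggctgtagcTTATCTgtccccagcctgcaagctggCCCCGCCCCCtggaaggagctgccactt
*Epor* intron site, chr9:21767128-21767157 in mm9, - strand: cttgctaggaggaGGAAgggggcgggggac

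*Klf1* encodes the transcription factor that activates globin and most other erythroid genes. Its gene (chr8:87425827-87429194 in mm9, + strand) had 178 FLI1, 14 RUNX1 and 77 input reads around the start. FLI1 stood at 0.799 times input (interval 0.608 to 1.06), which is higher than at 19.8% of all genes, and RUNX1 at 0.995 (interval 0.52 to 1.77). Input at *Klf1* was the highest of the 8 genes, at 1.66 times its genome-wide rate, and FLI1 measured against its own genome-wide rate was 1.32, so the ratio lay on either side of 1 with the choice of reference. The part of the high input in the ratio was not tested.

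No FLI1 bin was called within 2 kb of the *Klf1* start, although one was at a threshold of 2-fold, which 45% of all genes passed. The 400 bp from 1200 to 1600 bp after the start nevertheless held 44 FLI1, 6 RUNX1 and 7 input reads, or 3.27, 7.06 and 1.5 times the genome-wide rates, whereas the 400 bp on either side of the start itself held 13 and 11 FLI1 reads. The stretch inside *Klf1* therefore had more reads of both antibodies than the start, in windows that were aligned to the gene and not to the bins. In the fixed bins the rises fell apart. The bin centred 1174 bp after the start held 39 FLI1, 2 RUNX1 and 4 input reads. The bin centred at 1574 bp held 19 FLI1, 5 RUNX1 and 12 input reads. The called bins of the *Klf1* territory lay at other genes' starts. One, at -8001 bp from the *Klf1* start (chr8:87417601-87418000), held 69 FLI1 reads at 3.72 times the expectation and had its summit at -6 bp from the start of *Gcdh*, a mitochondrial dehydrogenase gene. The other, 6655 bp after the *Klf1* start (chr8:87432401-87432800), held 72 FLI1 reads at 4.78 times the expectation and 6 RUNX1 reads, and lay 23 bp into *Dnase2a*, which encodes a lysosomal nuclease. The promoter of *Klf1* is shown for contrast with that of *Tfrc*, with GATA letters in capitals.

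*Klf1* promoter, chr8:87425707-87425826 in mm9, + strand: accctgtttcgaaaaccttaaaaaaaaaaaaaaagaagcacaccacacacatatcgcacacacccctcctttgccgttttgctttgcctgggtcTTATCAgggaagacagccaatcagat

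**Figure D2:**
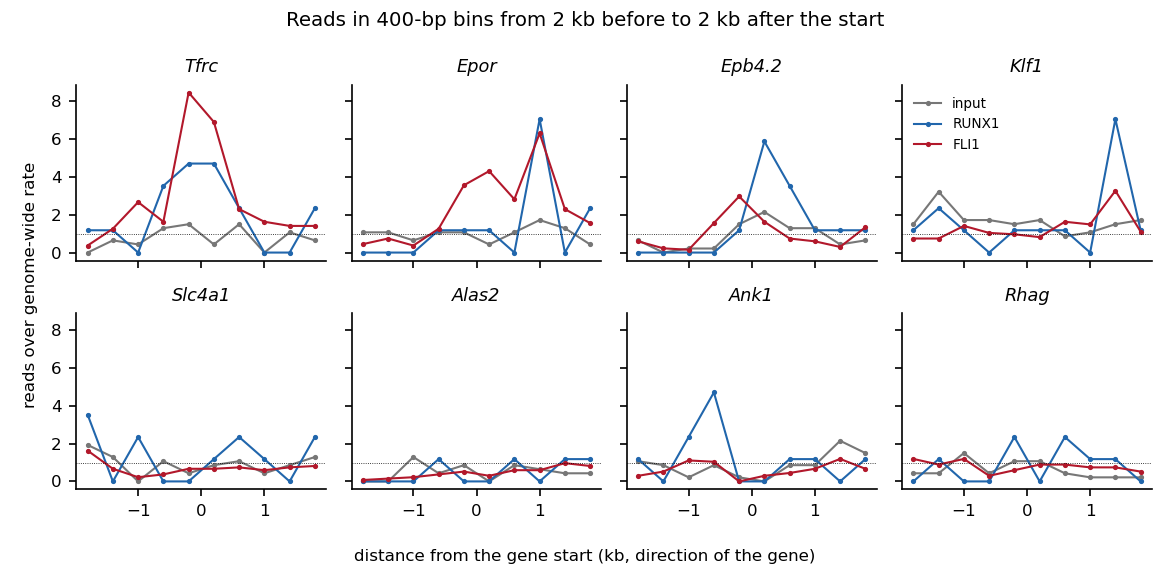
Reads in 400-bp bins from 2 kb before to 2 kb after the start of each gene, as multiples of each library's genome-wide rate, for FLI1 (red), RUNX1 (blue) and input (grey). FLI1 peaks at the start of *Tfrc* and at the start and inside *Epor*, RUNX1 points of *Epor* and *Klf1* at 7.06 rest on 6 reads each, and *Slc4a1*, *Alas2*, *Ank1* and *Rhag* stay flat for FLI1.

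*Alas2* encodes the erythroid form of the first enzyme of heme synthesis and lies on the X chromosome (chrX:146981918-147005181 in mm9, + strand). It had the fewest reads of the 8 genes, 62 FLI1, 4 RUNX1 and 23 input reads around the start. FLI1 stood at 0.931 times input (interval 0.569 to 1.57) and RUNX1 at 0.952 (interval 0.239 to 2.79), and neither differed from input beyond counting error. Against the genome-wide rate the 3 libraries were all low, at 0.46 for FLI1, 0.471 for RUNX1 and 0.494 for input. Low levels were shared by genes of the X chromosome, whose median was 0.631 for FLI1, 0.588 for RUNX1 and 0.559 for input, against 1.04, 1.06 and 0.86 on the autosomes. From -16.9 to -11.3 kb from the start, 15 consecutive bins held no read in any library.

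The one called FLI1 bin in the *Alas2* territory was 40781 bp beyond its start (chrX:147022401-147022800). It held 98 FLI1, 2 RUNX1 and 4 input reads, at 7.28 times the expectation for FLI1. Its summit was at -73 bp from the start of *Pfkfb1*, a glycolytic regulator, and in an exon of *Apex2*, a DNA repair gene. The *Alas2* promoter is shown with GATA letters in capitals.

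*Alas2* promoter, chrX:146981798-146981917 in mm9, + strand: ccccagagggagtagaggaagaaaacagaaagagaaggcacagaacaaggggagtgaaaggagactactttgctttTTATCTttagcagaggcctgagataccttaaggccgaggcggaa

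Of the 4 membrane genes, none reached a ratio of 2 for FLI1 or RUNX1, and all 4 intervals for FLI1 included 1. In a narrower window of 2 kb in all, the RUNX1 ratio passed 2 at *Ank1* (3.48) and *Epb4.2* (2.1), while the share of all genes past 2 was 29.2% there. *Slc4a1* encodes band 3, the anion exchanger that anchors the red cell membrane. Its gene (chr11:102210138-102227517 in mm9, - strand) had 95 FLI1, 11 RUNX1 and 43 input reads around the start, a FLI1 ratio of 0.763 (interval 0.527 to 1.12) and a RUNX1 ratio of 1.4 (interval 0.651 to 2.76). The gene record starts at a noncoding transcript, and at the start of the coding transcript, 923 bp into the gene, the FLI1 ratio was 0.898 (interval 0.602 to 1.37). The highest FLI1 bin of its territory reached 30 reads and 2.23 times the expectation, so no bin was called.

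*Ank1* encodes ankyrin, which ties band 3 to the membrane skeleton. It is the longest of the 8 genes (chr8:24085316-24260969 in mm9, + strand) and had 84 FLI1, 10 RUNX1 and 40 input reads around the start. The FLI1 ratio of 0.725 (interval 0.492 to 1.09) was the lowest of the 8, and the RUNX1 ratio was 1.37 (interval 0.61 to 2.78). The annotation gives *Ank1* transcripts that start up to 165249 bp further on, and the highest FLI1 ratio at any of these starts was 1.02 (interval 0.707 to 1.5). Among the 539 bins of its territory, none was called for FLI1, and the highest reached 2.16 times the expectation. A bin 120.9 kb after the start held 50 input reads, 10.7 times the genome-wide rate, beside 40 FLI1 and 9 RUNX1 reads. Measured against the genome-wide rate alone this bin would be called for RUNX1, and with the input counted it was not.

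*Epb4.2* encodes protein 4.2, a partner of band 3 and ankyrin. Its gene (chr2:120843627-120862808 in mm9, - strand) had 136 FLI1, 12 RUNX1 and 39 input reads around the start, a FLI1 ratio of 1.2 (interval 0.838 to 1.77) and a RUNX1 ratio of 1.68 (interval 0.803 to 3.28). The bin at its start (chr2:120862801-120863200) was called with 43 FLI1 reads, where 41 were needed, and 7 input reads. FLI1 over input in that bin was 2.12 (interval 0.946 to 5.59), and the call was lost when the bins were moved by 200 bp or the reads were not shifted. The second bin of the territory, 28661 bp from the start (chr2:120834001-120834400), was strong, with 167 FLI1, 0 RUNX1 and 4 input reads at 12.4 times the expectation, and lay 8 bp into *Ccndbp1*, a neighbouring gene. *Epb4.2* was the only one of the 8 genes with ETS letters in its promoter, shown in capitals (TTTCCTG, the reverse complement of CAGGAAA) with GATA letters before them.

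*Epb4.2* promoter, chr2:120862809-120862928 in mm9, - strand: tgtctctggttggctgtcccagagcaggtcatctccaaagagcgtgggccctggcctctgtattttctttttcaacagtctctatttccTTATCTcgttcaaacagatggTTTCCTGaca

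*Rhag* encodes the Rh-associated glycoprotein, an ammonium and gas channel of the red cell membrane. Its gene (chr17:40948075-40977703 in mm9, + strand) had 107 FLI1, 7 RUNX1 and 28 input reads around the start, a FLI1 ratio of 1.32 (interval 0.864 to 2.08) and a RUNX1 ratio of 1.37 (interval 0.504 to 3.21). All 3 libraries were below their genome-wide rates, FLI1 at 0.795, RUNX1 at 0.824 and input at 0.602. *Rhag* had the lowest content of G and C of the 8 windows, 33.2%, and among all genes with less than 40% G and C the share past a FLI1 ratio of 2 was 6.71%, against 32.2% in the class from 45 to 50%. The part of base composition in the ratio was not tested. No FLI1 bin was called in the territory, where the highest reached 2.0 times the expectation and 19 of 174 bins had no read in any library.

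Ordered by FLI1 over input, the 8 genes ran from *Tfrc* and *Epor* through *Rhag*, *Epb4.2*, *Alas2*, *Klf1* and *Slc4a1* to *Ank1*. The interval of *Tfrc* lay above those of the 6 genes from *Rhag* on. The interval of *Epor* lay above those of *Alas2*, *Klf1*, *Slc4a1* and *Ank1*, and overlapped those of *Rhag* and *Epb4.2*. Among the last 6 genes all intervals overlapped, which alone does not settle their order, and genes were not tested against each other. For RUNX1 the intervals of all 8 genes overlapped.

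Over whole territories, FLI1 over input ranged from 0.657 at *Ank1* (interval 0.628 to 0.687) to 1.39 at *Tfrc* (interval 1.27 to 1.52), with a median of 0.978 and quartiles of 0.842 and 1.13 over all genes. *Ank1* and *Slc4a1* (0.693) lay lower than most genes, at the 6.64 and 9.05 percentiles. *Tfrc* and *Rhag* (1.23) lay higher, at the 95.8 and 86.4 percentiles. Leaving out the bins within 2 kb of any protein-coding gene start gave 0.652 at *Ank1*, 0.688 at *Slc4a1*, 1.24 at *Rhag* and 1.29 at *Tfrc*. At *Tfrc* the site in *Tnk2* contributed to this value, and without its called bins the ratio was 1.12 (interval 1.01 to 1.24), whereas *Rhag*, *Slc4a1* and *Ank1* had no called bin to leave out. RUNX1 over input ran from 0.69 at *Ank1* to 1.1 at *Alas2* over the same territories.

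**Figure D3:**
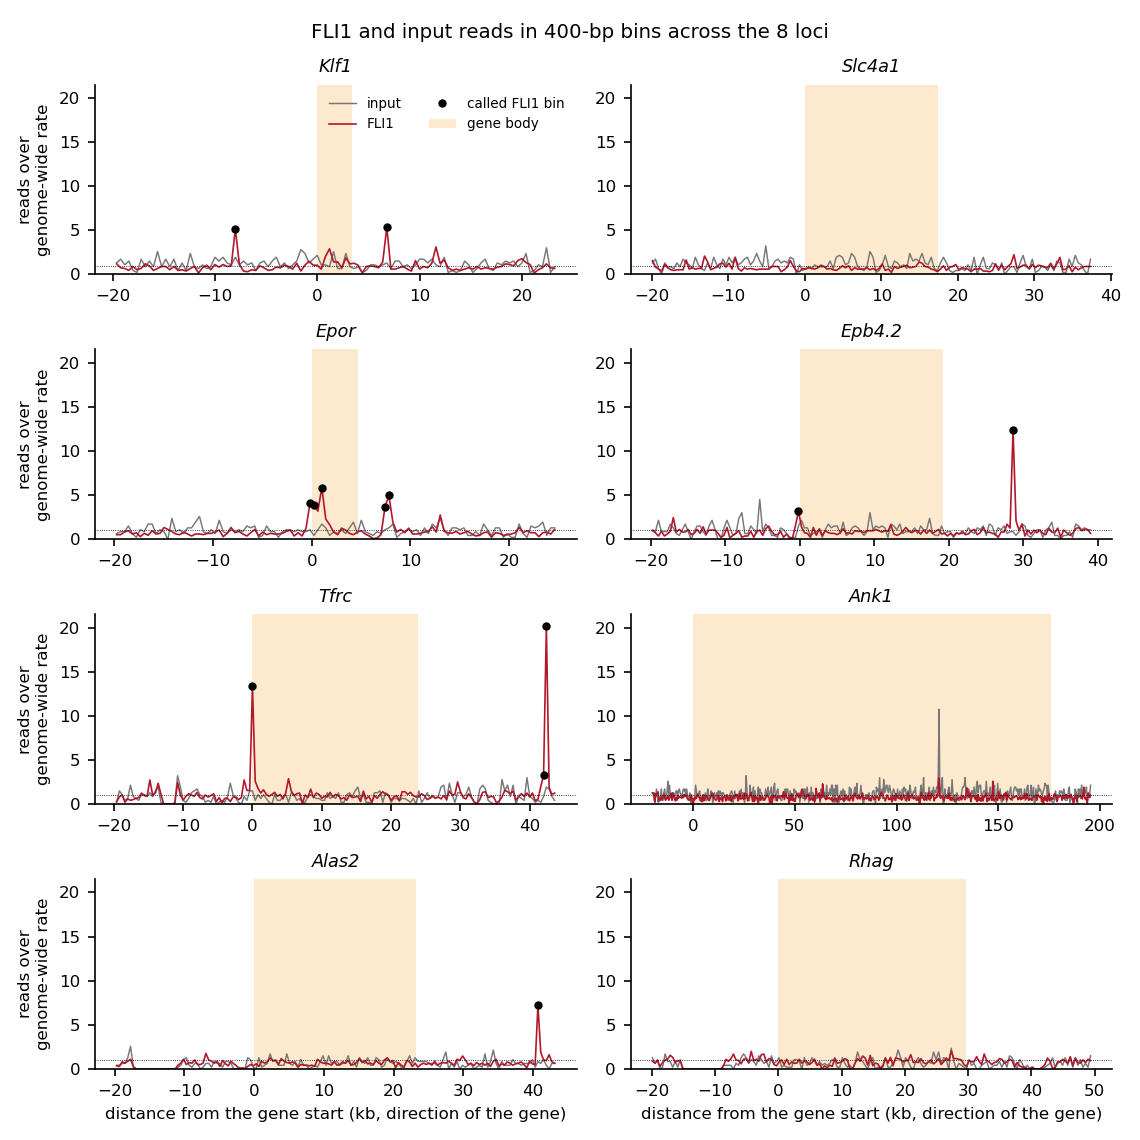
FLI1 (red) and input (grey) reads in 400-bp bins across each gene (shaded) and 20 kb on either side, as multiples of the genome-wide rate (dotted line), with called FLI1 bins as black dots and distance in kb from the gene start along the gene. *Tfrc* has a called bin at its start and a taller one 42.3 kb on, *Epor* has several at and after its start, the called bins of *Klf1* and *Alas2* lie outside the genes, and *Slc4a1*, *Ank1* and *Rhag* have none.

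The nearest called FLI1 bin was at the start or within 0.193 kb of it for *Tfrc*, *Epor* and *Epb4.2*, and 6.77 kb away for *Klf1*. It was 21.1 kb away for *Rhag*, 40.7 kb for *Alas2*, 42.3 kb for *Slc4a1* and 114 kb for *Ank1*, beside a median of 15.7 kb over all genes. No RUNX1 bin was called in the territory of any of the 8 genes, beside 5.3% of all genes with one in the territory and 1.73% with one within 2 kb of the start. Of all bins, 0.0224% in territories and 0.0152% in the genome were called for RUNX1. At the RUNX1 depth a bin needed 8 reads, or 9.41 times the genome-wide rate, whereas FLI1 needed 41 reads, or 3.05 times. Weaker RUNX1 sites thus could not pass the minimum of 8 reads, and with a minimum of 6 reads bins were called in the territories of *Klf1* and *Epor*, beside 24.5% of all genes. The RUNX1 file used here holds far fewer reads than the study lists for its RUNX1 library of these cells, so the absence of called bins describes this file only. The nearest called RUNX1 bin was 99.2 kb from *Tfrc*, 157 kb from *Slc4a1*, 198 kb from *Klf1*, 282 kb from *Ank1* and 371 kb from *Epor*, beside a median of 816 kb over all genes. It was 962 kb from *Rhag*, 2050 kb from *Epb4.2* and 7060 kb from *Alas2*, which lay beyond that median.

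GATA letters (AGATAA or AGATAG or TGATAA or TGATAG, on either strand) were found between 250 bases before and 50 bases after the start in 6 of the 8 genes, all but *Tfrc* and *Ank1*, beside 27.5% of all such promoters. For the 8 genes the outermost start of a coding transcript was used, which differs from the start of the gene record at *Slc4a1*. For all promoters the start of the gene record was used. Starts of *Ank1* transcripts further on were not searched. Counted from the start to the first letter of the match, the GATA letters lay at -8 in *Rhag*, -9 in *Slc4a1*, -26 in *Klf1*, -31 in *Epb4.2*, -44 in *Alas2* and -54 in *Epor*. ETS letters (CAGGAAG or CAGGAAA or CCGGAAG or CCGGAAA, on either strand) were in 1 of the 8, beside 31.3% of all promoters. RUNX letters (TGCGGT or TGTGGT, on either strand) were in the promoters of *Klf1*, *Epor*, *Tfrc* and *Rhag*, beside 21.6% of all promoters. KLF letters (CCNCNCCC, on either strand) were in those of *Epor*, *Slc4a1*, *Alas2*, *Tfrc* and *Ank1*, beside 54.4% of all promoters. Within 100 bases of the FLI1 summits, ETS letters were in 65.4% of the 22669 sites of the genome and in 5 of the 10 sites of the 8 territories. RUNX letters were in 28.9% of the sites of the genome and in none of those 10. The *Epor* intron site thus had neither ETS nor RUNX letters. The shorter core GGAA was present at 98.7% of all sites and 95.8% of all promoters, so its presence at the *Tfrc* and *Epor* summits is no distinction. These matches describe the DNA, and no GATA factor was measured here.

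The 8 genes were set beside a wider list of 72 further erythroid genes, of which 70 were found in the annotation. FLI1 over input had a median of 1.73 in the list, and 26 genes (37.1%) were past 2, beside 25.3% of all genes, the share against which the counts of the groups below are to be read. A called FLI1 bin within 2 kb of the start was present in 38 of the 70 (54.3%), beside 34.9% of all genes. The regulators stood highest, with a median of 3.66 and 8 of 12 genes past 2. *Lyl1* (7.45), *Bcl11a* (6.94) and *Nfe2* (4.92) led them, and *Gata1* (0.68) and *Sox6* (0.923) were lowest, with *Klf1* (0.799) between these last. The ratio of *Bcl11a* rested on 241 FLI1 and 12 input reads (interval 3.9 to 13.6), where the genome-wide rate of input is 46.5. The study lists *Nfe2*, *Lyl1*, *Tal1*, *Gfi1b* and *Gata1* of this group, and also *Epor*, among genes raised in mature MK. These genes are thus not genes of red cells alone. The study's list also holds genes of other groups, among them *Bcl2l1*, *Cish*, *Hemgn*, *Bnip3l*, *Prdx2*, *Epb4.1* and *Hbb-y*. Genes of heme synthesis had a median of 2.49, with 5 of 8 past 2. *Uros* (4.36), *Slc25a38* (4.31), which supplies glycine to mitochondria, and *Fech* (2.76), which inserts the iron, led them, *Cpox* (1.06) and *Ppox* (1.8) were lowest, and *Alas2* lay below all 8.

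Genes of erythropoietin signalling had a median of 2.33, with 4 of 8 past 2. The kinase gene *Pim1* (4.51), the survival gene *Bcl2l1* (4.15) and *Jak2* (3.33) were highest, and *Stat5a* (1.61) and *Stat5b* (1.72) lowest, so that *Epor* (2.4) stood near the median. Iron genes had a median of 1.73 with 4 of 8 past 2. The ferritin genes *Ftl1* (4.35) and *Fth1* (3.67) stood beside *Tfrc*, followed by *Ireb2* (2.3), and *Steap3* (0.891) and *Slc11a2* (0.995) were lowest. Membrane genes had a median of 1.19 with 2 of 15 past 2. *Epb4.1* (2.97) and *Xk* (1.85) were among the highest, and *Add2* (0.668) and *Epb4.9* (0.772) were lowest, a range that held *Slc4a1*, *Epb4.2*, *Ank1* and *Rhag*.

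Late erythroid genes had a median of 1.5 with 3 of 12 past 2, led by *Trim58* (4.52), *Bnip3l* (2.25) and *Hemgn* (2.11), with *Alox15* (0.667) and *Car1* (0.785) lowest. None of 7 globin genes was past 2, and their median was 1.1. *Hbb-b2* (1.46), *Hbb-y* (1.23) and *Hba-a1* (1.18) were highest and *Hba-x* (0.542) and *Hba-a2* (0.59) lowest, but near-identical copies make unique mapping of globin reads uncertain. RUNX1 bins were called within 2 kb of the start of 4 genes of the list, the regulators *Lyl1* and *Nfe2*, the heme gene *Uros* and the ferritin gene *Ftl1*, beside 1.73% of all genes, and of none of the 8 genes. The libraries held FLI1 at MK genes, with a median of 2.68 over 8 of them, 7 past 2 and all 8 with a called bin at the start, *Itga2b* (5.5) and *Pf4* (4.25) being highest. For RUNX1 the same 8 MK genes had a median of 1.64, with 1 past 2 and 0 with a called bin within 2 kb of the start, so the counts were no higher than at the 8 erythroid genes. Genes of granulocytes and monocytes had a median of 1.54 with 1 of 8 past 2, and lymphoid genes 0.907 with 0 of 8 past 2, which lay on either side of the median of the erythroid genes examined (1.07).

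**Figure D4:**
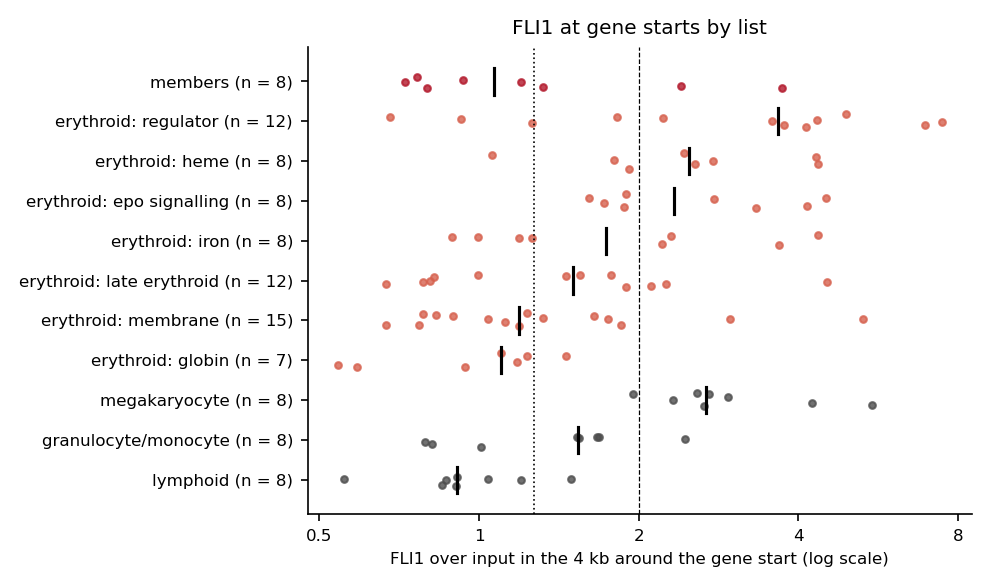
FLI1 over input in the 4 kb around the gene start (log scale) for the 8 erythroid lineage genes (members, red), 7 groups of further erythroid genes (light red) and genes of other blood lineages (grey), with a point per gene, black bars at the group medians, the dotted line at the median of all genes and the dashed line at 2. The 8 genes have their median at 1.07, erythroid regulators at 3.66 and MK genes at 2.68, and single genes spread widely within every group. The regulators include genes that the study lists as raised in mature MK, such as *Nfe2*, and so do other erythroid groups, such as *Bcl2l1* and *Hemgn*.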

How the data were processed

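ChIP-seq reads of FLI1, RUNX1 and input from MKMat were used as the authors deposited them, as chromosome, start, end and strand of each mapped read on mm9. According to the methods the authors mapped reads with Bowtie and kept unique, non-redundant reads. The submitters' processing notes also name MACS 1.4 and SICER 1.1, which were not used here. The files hold positions and no signal, so every read count was made by counting. In the input 3.238% of reads repeated a position and strand and were reduced to 1. Of 100000 FLI1 reads, 96.4% matched the mm9 genome with at most 2 mismatches.

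Reads were shifted by 75 bp, which is the methods' fragment length of 150 bp divided by 2, and counted with Python 3.11.15, NumPy 2.4.6 and SciPy 1.17.1. Gene starts are the 5′ ends of GENCODE M1 gene records. Ratios needed 3 or more input reads. Bin calls and intervals were tried on simulated reads that were spread evenly apart from planted sites. Such reads cannot show how the calls behave where input is uneven. Sequences were read from the mm9 genome. The rule for the 8 genes uses no reads, but it and the lists, thresholds and motifs were chosen with earlier results of these data known. All 8 genes were described, and in each role group of the wider list the 3 genes with the highest and the 2 with the lowest FLI1 ratio were named, with those that had a called RUNX1 bin at the start, except for 1 gene whose values are not reported here. *Ahsp* and *Gypc* were not found in the annotation under these names. Alternatives covered the shift, window, reference, thresholds, bins and depth. Counts of bins within 2 kb of starts, and territory ratios without called bins, were added after the data had been seen.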

Additional observations from a re-analysis of the deposited data

How the results depend on the processing

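No paired analysis was possible because each antibody has 1 library. Shares of all genes under the same setting stand in brackets. The count of genes past a FLI1 ratio of 2 was 2 (*Tfrc* and *Epor*) under 7 of 9 alternatives, while the share of all genes ranged from 16.7% with the genome-wide rate as the reference to 44.2% in a window of 1 kb. The count was 1 with a ratio of 3 (9.26%) and 0 with RUNX1 as the reference (11.9%). For RUNX1 the count of 1 became 3 in a window of 2 kb (*Tfrc*, *Epb4.2* and *Ank1*; 29.2%), 2 in a window of 1 kb (37.1%) or with a ratio of 1.5 (33.7%), and 0 with a ratio of 3 (4.12%) or with the genome-wide rate as the reference (5.51%). In the window of 1 kb *Ank1* had too few input reads for a ratio, and the medians over the other 7 genes were 1.17 for FLI1 and 1.09 for RUNX1, beside 1.67 and 1.46 over all genes, so that RUNX1 lay below all genes there. Under the remaining alternatives the median over the 8 genes ranged from 0.884 to 1.12 for FLI1, below that of all genes in each, and from 1.29 to 1.77 for RUNX1, above that of all genes in each. The gap for FLI1 was wider in the window of 2 kb (0.975 beside 1.46). Genes with a called FLI1 bin in the territory numbered 8 at 2-fold (71.7%), 3 at 5-fold (43.9%), 3 with territories of 2 kb (46.2%) and 2 after FLI1 reads were drawn down to as many as RUNX1 has (29.8%), against 5. Within 2 kb of the start they numbered 4 at 2-fold (*Klf1* added; 45%), 1 at 5-fold (21.6%) and 1 when thinned (12.1%; *Tfrc* in both), against 3. RUNX1 bins appeared in 1 territory (*Ank1*) with the genome-wide rate alone (5.38%), in 2 (*Klf1* and *Epor*) with 6 reads as the minimum (24.5%), and within 2 kb of 1 start (*Epor*) with that minimum (6.37%). Over the alternatives the FLI1 ratio ranged from 1.4 to 7.13 at *Tfrc*, from 1.83 to 4.45 at *Epor*, from 0.528 to 1.32 at *Klf1* and from 0.545 to 0.907 at *Slc4a1*. The cause was not tested, except that stricter or looser thresholds and thinning pass fewer or more bins by construction. Of the 3 libraries RUNX1 is the one most limited by depth, and with 1 library per antibody nothing here measures variation between cultures.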
